A study of Mus musculus with 23 samples.

Results

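Matrix metalloproteinases are zinc-dependent proteases that cut collagens, elastin and other proteins of the extracellular matrix, and the tissue inhibitors of metalloproteinases (TIMPs) block them by binding the catalytic zinc site. The 8 genes described here are 6 metalloproteinases (Mmp8, Mmp9, Mmp12, Mmp13, Mmp14 and Mmp19) and 2 inhibitors (Timp1 and Timp2), taken by gene symbol from 19938 genes measured on an Affymetrix gene array. Each gene was read from a probe set annotated to 1 symbol, and none of the 8 had more than 1 such probe set. Most metalloproteinases are made as inactive precursors and act outside the cell or at its surface, so an RNA level does not give the protease activity. In macrophages these enzymes are known for matrix turnover, for clearing a path through tissue and for trimming chemokines and surface receptors.

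The cells were bone marrow-derived macrophages (BMDMs) of wild-type C57Bl/6 mice, grown from marrow in macrophage colony-stimulating factor (M-CSF, 10 ng/mL) for 6 days and treated after its removal. There were 23 arrays in 6 groups: 4 arrays with 250 µM stearic acid (SA) for 20 h, 4 with SA for 5 h, 4 with 250 µM oleic acid (OA) for 20 h, 4 with OA for 5 h, 4 with 1 ng/mL bacterial lipopolysaccharide (LPS) for 5 h and 3 with 125 µM bovine serum albumin (BSA), the vehicle, for 5 h. SA is a saturated fatty acid, OA is a monounsaturated one of the same chain length, and both were given bound to fatty acid-free BSA. The sample labels give 5 h for LPS and vehicle, whereas the series text gives 4 h, and there was no vehicle group at 20 h, so that an effect of time in culture cannot be told apart from an effect of longer exposure. The labels speak of replicate wells and the series text of biological replicates, with no number of mice, so that p-values rest on the spread of these samples alone, which may be technical.

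Values are deposited log2 expression after robust multi-array averaging (RMA), so a difference of 1 is a doubling. All 9 macrophage markers measured, Adgre1, Csf1r, Lyz2 and Cd68 among them, lay above the median over genes (4.20 to 4.27) in every group. Of markers of other cells, 5 of 5 for mast cells, 4 of 4 for lymphocytes and 4 of 5 for dendritic cells lay below it in every group. The neutrophil genes S100a8 and Ngp were high in every group, as described with Mmp8 below. Replicate 2 of SA at 20 h stood apart from its group (SD of its deviations from the group means 0.22, against 0.15 to 0.16 in the other SA arrays at 20 h), and the count of members that passed the test between SA and OA at 20 h was 4 with it and 4 without it.

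The metalloproteinases did not move as one group. LPS raised Mmp13 and Mmp14 and lowered Timp2, SA lowered Mmp9 and Timp2 and raised Mmp13 and Mmp19 relative to OA at 20 h, and Mmp8 was higher at 20 h than at 5 h with either fatty acid. Between SA and OA at 20 h, 4 of 8 members passed the test (limma's moderated test, Benjamini-Hochberg adjusted p under 0.05 over 19938 genes), 2 up and 2 down, where 16.7% of all genes passed (7.72% up and 8.95% down). Between SA and OA at 5 h, 2 of 8 passed, both higher with SA, against 5.67% of all genes (3.3% up and 2.37% down). How far the SA minus OA difference itself shifted from one time to the other passed for 3 of 8 members, 1 up and 2 down, against 4.98% of all genes (1.58% up and 3.4% down). Between LPS and BSA, 3 of 8 members passed, 2 up and 1 down, against 22.4% of all genes (9.22% up and 13.2% down). Between SA and BSA at 5 h 1 of 8 passed, upwards, against 3.33% of all genes (1.94% up and 1.39% down).

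Between OA and BSA at 5 h none of 8 passed limma's adjusted test, where 0.0702% of all genes passed and 1 member, Mmp14, had an unadjusted p under 0.05. Between SA and LPS at 5 h, 5 of 8 passed, 2 up and 3 down, against 22.1% of all genes (13% up and 9.11% down). The count was 7 of 8 between SA at 20 h and SA at 5 h, 3 up and 4 down, against 12.8% of all genes (6.23% up and 6.57% down). It was 3 of 8 between OA at 20 h and OA at 5 h, 1 up and 2 down, against 4.38% of all genes (2.58% up and 1.8% down). The median absolute log2 difference of the 8 members was 0.43 between SA and OA at 20 h, against 0.13 over all genes, and 0.67 between SA at 20 h and 5 h, against 0.13 over all genes. Between OA and BSA at 5 h these medians were 0.13 for the members and 0.09 for all genes. The members were chosen with earlier results of these data known. Their mean levels lay between the 71.6 and 99.9 percentiles of all genes, so that all genes are not a matched reference. The SA arrays at 20 h enter 3 of these comparisons and the BSA arrays another 3, so that such comparisons share samples.

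**Figure D1:**
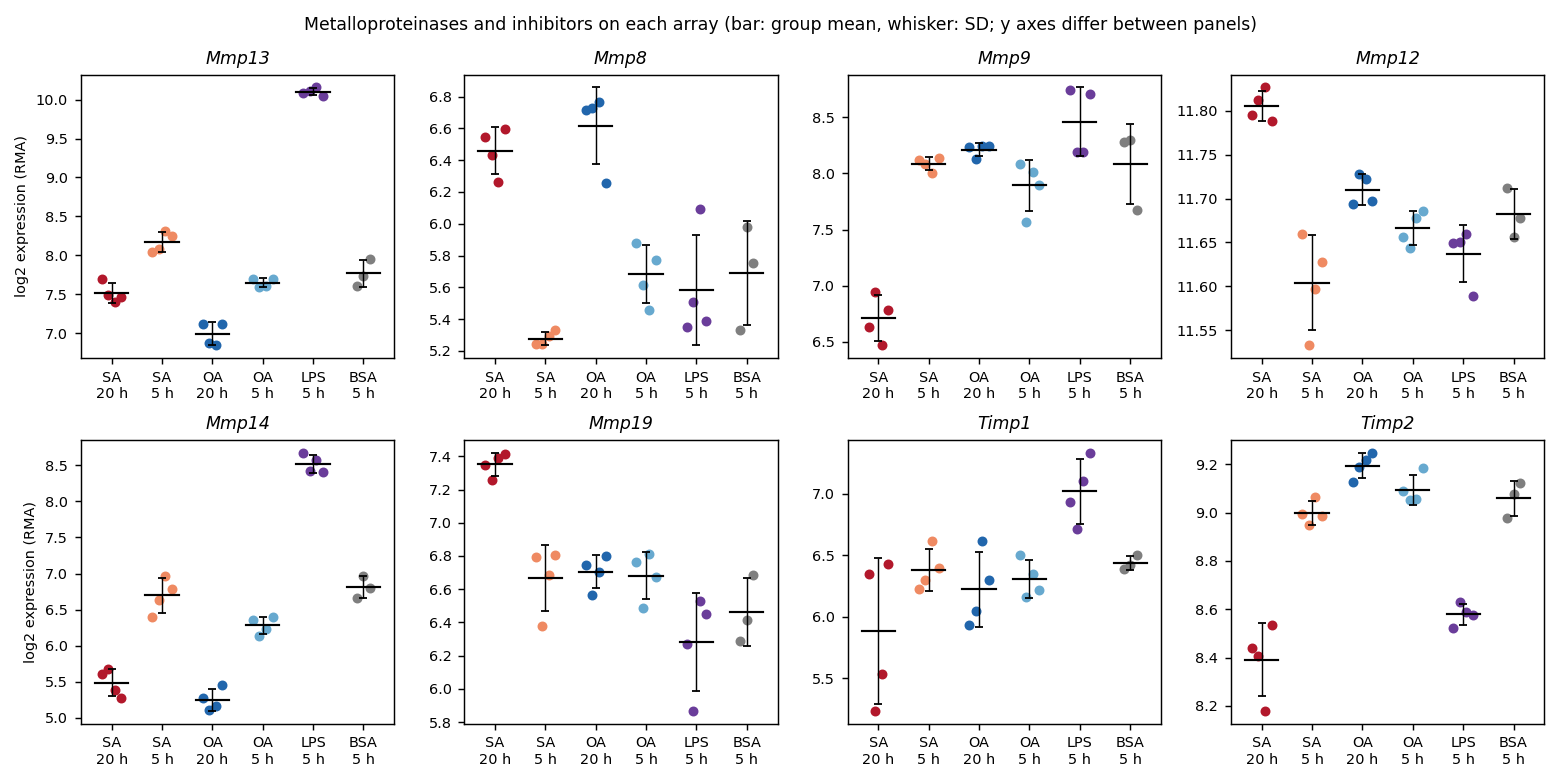
Log2 RMA expression (y axis, different in each panel) of the 8 genes on each of the 23 arrays, by group (x axis); points are arrays, bars are group means and whiskers are SDs (n = 4, or 3 for BSA). Mmp13 and Mmp14 stand highest in the LPS group, and Mmp9 stands lowest in the SA group at 20 h.

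Mmp13 encodes collagenase-3, a secreted enzyme that cleaves fibrillar collagens. Its log2 values were 10.08, 10.12, 10.16 and 10.05 on the LPS arrays, against 7.61, 7.73 and 7.96 on the BSA arrays. Every LPS array lay above all of the other 19 arrays, of which the highest read 8.31. The difference was 2.34 ± 0.10 (SE), a 5.05-fold higher level with LPS, with an adjusted p of 3.21e-15 by limma.

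With SA at 5 h, Mmp13 read 8.05, 8.09, 8.31 and 8.24, against 7.69, 7.59, 7.60 and 7.70 with OA at 5 h. At 20 h it read 7.70, 7.49, 7.39 and 7.47 with SA, against 7.12, 6.87, 6.85 and 7.12 with OA. The SA arrays lay above the OA arrays without overlap at both times, and the OA arrays at 20 h lay below all of the other 19 arrays. The SA minus OA difference was 0.52 ± 0.09 at 20 h (1.44-fold, adjusted p = 0.000175) and 0.53 ± 0.09 at 5 h (1.44-fold, adjusted p = 0.000553). The change of this difference between the times was -0.00499 ± 0.13, with a 95% interval of -0.28 to 0.27. Against BSA, SA at 5 h raised Mmp13 by 0.41 ± 0.10 (adjusted p = 0.0223), and this call was lost when any 1 of 4 arrays was left out (adjusted p = 0.171 without BSA replicate 1, 0.106 without BSA replicate 2, 0.0827 without SA replicate 3 and 0.0627 without SA replicate 4) or when only the SA and BSA arrays at 5 h were fitted (0.137).

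OA at 5 h did not separate from BSA for Mmp13, with a difference of -0.12 and an interval of -0.33 to 0.09. The level with SA at 5 h stayed far below that with LPS, at -1.93 ± 0.09 (3.81-fold lower, adjusted p = 2.81e-14). Both fatty acids gave less Mmp13 at 20 h than at 5 h, by -0.66 with SA and -0.65 with OA on the log2 scale (adjusted p = 1.29e-05 and 5.71e-05). By group mean the order was LPS, SA at 5 h, BSA, OA at 5 h, SA at 20 h and OA at 20 h, and the neighbours whose arrays overlapped were BSA with OA at 5 h and OA at 5 h with SA at 20 h. The span from highest to lowest group was 3.11, or 8.64-fold.

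Mmp14 encodes MT1-MMP, a membrane-anchored metalloproteinase that cuts collagen at the cell surface and activates other metalloproteinases, pro-MMP13 among them. It read 8.67, 8.43, 8.58 and 8.40 on the LPS arrays, against 6.66, 6.96 and 6.81 on the BSA arrays. As with Mmp13, every LPS array lay above the other 19 arrays, whose highest value was 6.97. The difference was 1.71 ± 0.13, or 3.27-fold (adjusted p = 1.12e-10).

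Mmp14 read 5.61, 5.67, 5.39 and 5.28 with SA at 20 h, against 6.40, 6.63, 6.97 and 6.79 with SA at 5 h. With OA it read 5.27, 5.11, 5.16 and 5.46 at 20 h, against 6.36, 6.14, 6.24 and 6.40 at 5 h. Within each fatty acid the 20 h arrays all lay below the 5 h arrays. The later time was lower by 2.31-fold with SA (log2 difference -1.21 ± 0.12, adjusted p = 3.9e-08) and by 2.04-fold with OA (-1.03 ± 0.12, adjusted p = 2.55e-06).

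SA and OA differed in Mmp14 by 0.41 ± 0.12 at 5 h (adjusted p = 0.0371), where the lowest SA array and the highest OA array both read 6.40. That call was lost without OA replicate 2 or 3 or SA replicate 2, 3 or 4 at 5 h (adjusted p of 0.0545 to 0.155), with only the arrays of SA and OA at 5 h fitted (0.124), with all probe sets tested (0.0682) and with the replicate number as a block (0.0589). At 20 h the difference of 0.24 did not pass (adjusted p = 0.214, 95% interval -0.01 to 0.48). OA at 5 h read below all BSA arrays, with a difference of -0.52 ± 0.13, an unadjusted p of 0.000412 and an adjusted p of 0.216. SA at 5 h overlapped BSA (-0.11, interval -0.37 to 0.15) and lay 3.53-fold below LPS (adjusted p = 7.43e-12). The order by group mean was LPS, BSA, SA at 5 h, OA at 5 h, SA at 20 h and OA at 20 h, with overlap between BSA and SA at 5 h and between SA and OA at 20 h, and a span of 3.27 (9.64-fold).

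Over the 6 groups, the centred group means of Mmp13 and Mmp14 had a root mean square difference of 0.33, where their spans were 3.11 and 3.27. Between Mmp13 and its chromosome neighbour Mmp8 it was 1.33. The measure depends on how far genes move, so a small value does not by itself show likeness. It was 0.28 between Mmp12 and Mmp19 and 0.33 between Mmp12 and Timp2, where Mmp12 spanned only 0.20. The promoters of Mmp13 and Mmp14, which moved together with LPS, are shown beside those of Mmp8, which did not pass the LPS test, and Timp2, which fell with LPS. The sequences are those of RefSeq on GRCm38.p6, given on each gene's own strand from 250 bases before the annotated start to 30 after it. Mmp13 lies at chr9:7272264-7272543 on the plus strand, Mmp14 at chr14:54431348-54431627 on the plus strand, Mmp8 at chr9:7558179-7558458 on the plus strand and Timp2 at chr11:118355382-118355661 on the minus strand. Capitals mark matches, on either strand, to an AP-1 element (TGANTCA), a kappa B element (GGGNNNNNCC) or an ETS element (AGGAAG).
Mmp13: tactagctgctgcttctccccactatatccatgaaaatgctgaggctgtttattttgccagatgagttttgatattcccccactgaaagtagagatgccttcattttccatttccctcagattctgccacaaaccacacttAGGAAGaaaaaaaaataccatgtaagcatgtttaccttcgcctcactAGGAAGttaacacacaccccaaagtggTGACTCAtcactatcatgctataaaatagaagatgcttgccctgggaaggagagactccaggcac
Mmp14: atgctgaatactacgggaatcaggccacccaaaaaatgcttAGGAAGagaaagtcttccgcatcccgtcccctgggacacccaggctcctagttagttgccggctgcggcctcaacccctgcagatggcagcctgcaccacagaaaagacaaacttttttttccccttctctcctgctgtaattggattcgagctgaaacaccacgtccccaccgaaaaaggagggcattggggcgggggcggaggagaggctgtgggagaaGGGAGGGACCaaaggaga
Mmp8: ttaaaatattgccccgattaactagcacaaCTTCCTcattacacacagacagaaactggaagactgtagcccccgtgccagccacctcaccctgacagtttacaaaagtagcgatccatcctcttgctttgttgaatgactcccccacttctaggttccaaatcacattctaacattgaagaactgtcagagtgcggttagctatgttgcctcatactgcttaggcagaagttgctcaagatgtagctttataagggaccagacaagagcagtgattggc
Timp2: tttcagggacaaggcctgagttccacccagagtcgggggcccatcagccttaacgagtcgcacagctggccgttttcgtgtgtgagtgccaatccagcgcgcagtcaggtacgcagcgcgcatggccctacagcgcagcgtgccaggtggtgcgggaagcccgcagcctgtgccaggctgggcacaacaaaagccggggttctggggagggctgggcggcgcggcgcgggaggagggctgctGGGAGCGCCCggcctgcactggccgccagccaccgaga

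The Mmp13 window holds 1 AP-1 match, beginning at position -35 from the start, and 2 ETS matches at -109 and -62. The Mmp14 window holds no AP-1 match, 1 kappa B match at position 13 after the start and 1 ETS match at -209. The Mmp8 window holds 1 ETS match, on the opposite strand at -220, and the Timp2 window 1 kappa B match at -8. None of these matches overlapped another. Among the members not printed, 1 of 2 Mmp12 windows of 300 bases also holds an AP-1 match, at -44, and Mmp12 differed by -0.04 between LPS and BSA without passing the test. The Timp1 window holds 4 kappa B matches, 3 of which overlap each other, and 3 ETS matches. Of 32851 promoters of 300 bases in the same RefSeq table, 7.81% hold the AP-1 letters, 50.8% the kappa B letters and 35.4% the ETS letters. A match describes the letters in the window and does not show that a factor binds there. Of the 8 genes, 6 had a promoter in the table, and Mmp9 and Mmp19 are named here without one.

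Mmp8 encodes neutrophil collagenase, best known from neutrophil granules and also made by macrophages. It read 6.54, 6.43, 6.26 and 6.60 with SA at 20 h, against 5.24, 5.24, 5.29 and 5.33 with SA at 5 h. With OA it read 6.72, 6.73, 6.77 and 6.26 at 20 h, against 5.88, 5.62, 5.46 and 5.77 at 5 h. The 20 h arrays lay above the 5 h arrays with either fatty acid, and the 4 SA arrays at 5 h lay below all of the other 19 arrays, though by very little: the nearest, a BSA array, read 5.335, against 5.330 on the highest SA array.

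Mmp8 was 2.27-fold higher at 20 h than at 5 h with SA (log2 difference 1.18 ± 0.15, adjusted p = 3.08e-06) and 1.91-fold higher with OA (0.93 ± 0.15, adjusted p = 0.000295). The change of the SA minus OA difference between the times was 0.25 (interval -0.20 to 0.69, adjusted p = 0.703). The 2 fatty acids did not pass the test against each other, with -0.16 at 20 h (interval -0.47 to 0.16) and -0.41 at 5 h (interval -0.72 to -0.09, adjusted p = 0.142), although the arrays at 5 h did not overlap. The SA arrays at 5 h also lay below every BSA array, by -0.41 (adjusted p = 0.227). LPS arrays read 5.35, 5.51, 6.10 and 5.39 and BSA arrays 5.33, 5.98 and 5.75, with wide overlap (difference -0.10, interval -0.44 to 0.24). By group mean the order was OA at 20 h, SA at 20 h, BSA, OA at 5 h, LPS and SA at 5 h, and all neighbours overlapped except SA at 20 h with BSA and LPS with SA at 5 h.

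Some neutrophil genes were also higher at 20 h than at 5 h in these cultures. The mean of 15 neutrophil markers ranged over arrays from 6.03 to 6.26 with SA at 20 h, against 5.49 to 5.89 with SA at 5 h, and from 6.16 to 6.23 with OA at 20 h, against 5.84 to 6.05 with OA at 5 h. With SA, 7 of 15 were higher at 20 h than at 5 h and none was lower, where 6.23% of all genes were higher; the iron-binding granule protein Ltf rose by 1.01, Retnlg by 1.01, the siderophore-binding protein Lcn2 by 0.86 and the chemokine receptor Cxcr2 by 0.81 (adjusted p from 1.64e-05 to 0.0499). With OA, 3 of 15 were higher (Ltf by 0.72, Lcn2 by 0.59 and Ngp by 0.55), where 2.58% of all genes were higher. In every group 6 of the 15 had a mean below the median over genes. Among them were the neutrophil surface marker Ly6g, Cxcr2 and the granule proteases Elane, Prtn3 and Ctsg. Cxcr2 averaged 3.33 with SA at 5 h and 4.14 with SA at 20 h, and whether its signal stood above background was not tested. S100a8, in contrast, averaged between 11.20 and 11.53 in the 6 groups. The part of neutrophil RNA in the Mmp8 difference was not tested, and fewer cells of a type and less RNA per cell cannot be told apart in these bulk samples. With LPS, 4 of 15 neutrophil markers rose against BSA (9.22% of all genes), where Mmp8 did not pass.

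**Figure D2:**
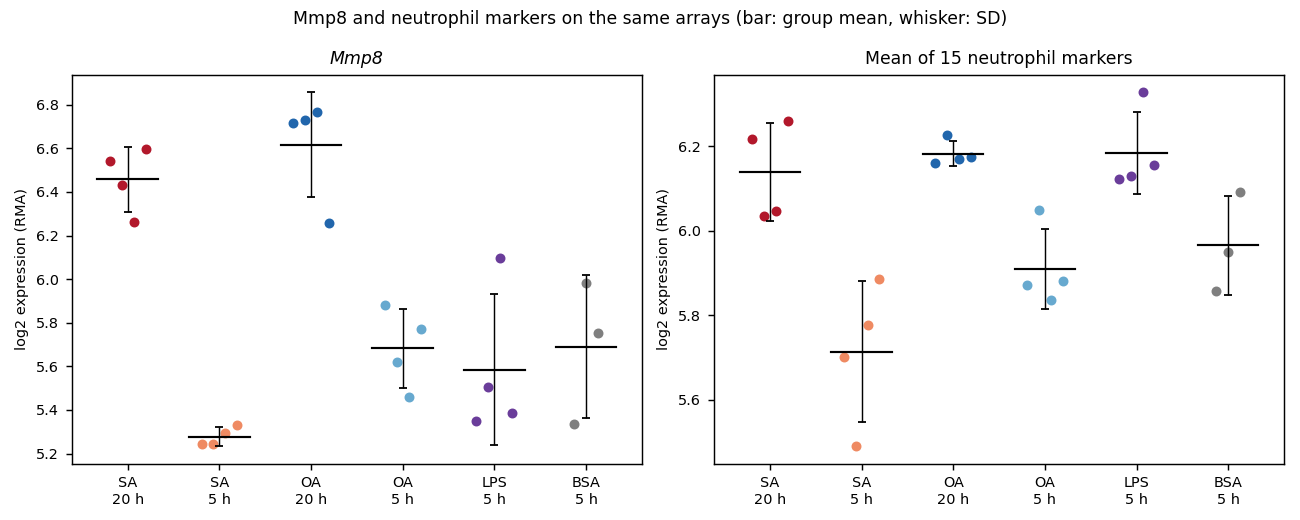
Log2 RMA expression of Mmp8 (left) and the mean over 15 neutrophil markers (right) on each array (y axes differ), by group; points are arrays, bars are group means and whiskers are SDs (n = 4, or 3 for BSA). Both are higher at 20 h than at 5 h with either fatty acid, while in the LPS group the marker mean lies at 6.12 to 6.33 and Mmp8 at 5.35 to 6.10.

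Mmp9 encodes gelatinase B, which cuts denatured collagen and the type of collagen found in basement membranes. It read 6.64, 6.95, 6.47 and 6.78 with SA at 20 h, against 8.23, 8.13, 8.25 and 8.24 with OA at 20 h. At 5 h it read 8.12, 8.09, 8.004 and 8.14 with SA, against 8.09, 7.57, 8.02 and 7.90 with OA. The 4 SA arrays at 20 h lay below all of the other 19 arrays, the nearest of which read 7.57, while SA and OA overlapped at 5 h.

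Mmp9 was 2.83-fold lower in SA-treated than in OA-treated cells at 20 h (log2 difference -1.50 ± 0.15, interval -1.80 to -1.20, adjusted p = 2.14e-08). At 5 h the difference was 0.19 (interval -0.11 to 0.50, adjusted p = 0.582). The difference itself changed between the times by -1.70 ± 0.21 (adjusted p = 4.27e-06). Within SA, Mmp9 was 2.6-fold lower at 20 h than at 5 h (adjusted p = 1.53e-07), whereas within OA the change was 0.32 (interval 0.02 to 0.62, adjusted p = 0.277). Relative to BSA, Mmp9 differed by 0.00 with SA at 5 h (interval -0.32 to 0.33) and by -0.19 with OA at 5 h (interval -0.52 to 0.14).

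LPS arrays read 8.75, 8.19, 8.19 and 8.70 for Mmp9 and BSA arrays 8.28, 8.29 and 7.67. The groups overlapped and the difference of 0.38 ± 0.16 did not pass (adjusted p = 0.0973), but it did without LPS replicate 2 or replicate 3 (adjusted p = 0.0479 in either case). BSA replicates 1 and 2 lay above LPS replicates 2 and 3. SA at 5 h against LPS gave -0.37 (adjusted p = 0.0744), which passed with arrays centred on their medians (0.0357) and without LPS replicate 2 (0.0357) or 3 (0.0359). By group mean the order was LPS, OA at 20 h, SA at 5 h, BSA, OA at 5 h and SA at 20 h, and of these neighbours only OA at 5 h and SA at 20 h did not overlap.

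Most macrophage markers also fell with SA relative to OA at 20 h. Their mean over 9 genes ranged from 9.12 to 9.22 on the SA arrays at 20 h, against 9.86 to 9.89 on the OA arrays at 20 h. Of the 9, 7 fell with SA at 20 h relative to OA, where 8.95% of all genes fell, among them the Fc receptor Fcgr1 (by 2.13 on the log2 scale), the integrin Itgam (-1.05), the receptor kinase Mertk (-0.90) and the surface receptor Adgre1 (-0.80). Of the 15 neutrophil markers 1, the receptor Csf3r, fell in that comparison, by 0.50. The part of this shift in the Mmp9 result was not tested.

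Mmp12 encodes macrophage elastase, which degrades elastin and is made mainly by macrophages. It read 11.80, 11.81, 11.83 and 11.79 with SA at 20 h, against 11.69, 11.73, 11.72 and 11.70 with OA at 20 h. The SA arrays at 20 h lay above all of the other 19 arrays, but the span of the 6 group means was 0.20, or 1.15-fold. The highest value in the whole table was 12.9, and whether signals near the top of the range are compressed was not tested.

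The SA minus OA difference of 0.10 at 20 h did not pass (adjusted p = 0.384), despite the separation of the arrays. Mmp12 was higher at 20 h than at 5 h with SA by 0.20 ± 0.06 (adjusted p = 0.0317), with 11.66, 11.53, 11.60 and 11.63 at 5 h. That call was lost with arrays centred on their medians (0.0726), with quantile normalization (0.0539), with only the SA arrays fitted (0.226), and without any 1 of 5 SA arrays (replicates 1, 3 and 4 at 20 h, replicates 2 and 3 at 5 h, adjusted p from 0.0538 to 0.0975). The intervals of the differences from BSA were -0.18 to 0.09 for LPS, -0.22 to 0.06 for SA at 5 h and -0.15 to 0.12 for OA at 5 h. The order was SA at 20 h, OA at 20 h, BSA, OA at 5 h, LPS and SA at 5 h, with overlap between all neighbours other than the first pair.

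Mmp19 encodes a secreted metalloproteinase that cuts several basement membrane and matrix proteins. It read 7.35, 7.26, 7.39 and 7.41 with SA at 20 h, against 6.75, 6.57, 6.70 and 6.80 with OA at 20 h. At 5 h it read 6.80, 6.38, 6.68 and 6.81 with SA, against 6.76, 6.48, 6.81 and 6.67 with OA. The SA arrays at 20 h lay above all of the other 19 arrays, whose highest value was 6.81.

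The SA minus OA difference at 20 h was 0.65 ± 0.13, or 1.57-fold (adjusted p = 0.000415), and at 5 h it was -0.02 (interval -0.27 to 0.24). From 5 h to 20 h this difference shifted by 0.66 ± 0.18 (adjusted p = 0.0253). This call was lost with all probe sets tested (0.0507) and without SA replicate 4 or OA replicate 2 at 20 h, or SA replicate 2 or OA replicate 3 at 5 h (0.0506 to 0.0636). Within SA, Mmp19 was 1.61-fold higher at 20 h than at 5 h (adjusted p = 0.000307), and within OA the change was 0.02 (interval -0.24 to 0.28).

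Mmp19 was the only metalloproteinase of the 6 to pass the test as higher with SA than with LPS at 5 h. LPS arrays read 6.27, 5.87, 6.53 and 6.45 and BSA arrays 6.29, 6.42 and 6.68, with overlap (difference -0.18, interval -0.46 to 0.10). The SA minus LPS difference was 0.39 ± 0.13 (adjusted p = 0.0267) and did not pass with arrays centred on their medians (0.0819), with only the SA and LPS arrays at 5 h fitted (0.101), or without LPS replicate 1 or 2 or SA replicate 1, 3 or 4 (0.0543 to 0.145). The order was SA at 20 h, OA at 20 h, OA at 5 h, SA at 5 h, BSA and LPS, and all neighbours other than the first pair overlapped.

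Timp2 encodes an inhibitor that blocks metalloproteinases and also takes part, with MT1-MMP, in the activation of the gelatinase MMP2. It read 8.44, 8.41, 8.18 and 8.54 with SA at 20 h, against 9.12, 9.19, 9.22 and 9.25 with OA at 20 h. At 5 h it read 8.99, 8.95, 9.07 and 8.99 with SA, against 9.09, 9.05, 9.05 and 9.18 with OA. The SA arrays at 20 h lay below every OA and BSA array.

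Timp2 was 1.75-fold lower in SA-treated than in OA-treated cells at 20 h (-0.80 ± 0.08, adjusted p = 1.51e-08), while at 5 h the difference was -0.10 (interval -0.25 to 0.06). The difference changed between the times by -0.71 ± 0.11 (adjusted p = 9.62e-05). Within SA, Timp2 was 1.52-fold lower at 20 h than at 5 h (adjusted p = 2.2e-06), and within OA the change was 0.10 (interval -0.06 to 0.26). The macrophage marker values given with Mmp9 apply to these arrays too, and their part in the Timp2 result was not tested.

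LPS arrays read 8.52, 8.63, 8.59 and 8.57 for Timp2, against 8.98, 9.08 and 9.12 on the BSA arrays. The groups did not overlap, and the level was 1.4-fold lower with LPS (-0.48 ± 0.08, adjusted p = 8.06e-05). SA at 5 h did not separate from BSA (-0.06, interval -0.23 to 0.11) and lay above LPS by 0.42 ± 0.08 (adjusted p = 0.000155). The order was OA at 20 h, OA at 5 h, BSA, SA at 5 h, LPS and SA at 20 h, with a span of 0.80 (1.75-fold), and of the neighbours only SA at 5 h and LPS did not overlap.

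Timp1 encodes a secreted inhibitor of most metalloproteinases that is known as an inducible gene in inflammation. It read 6.93, 6.71, 7.10 and 7.33 on the LPS arrays, against 6.39, 6.42 and 6.50 on the BSA arrays. The LPS arrays lay above all of the other 19 arrays, and the difference of 0.58 ± 0.22 (1.5-fold) had an adjusted p of 0.0552. It passed with arrays centred on their medians (0.0395), with array weights (0.033), without the dimmest 25% of genes (0.0438), without LPS replicate 2 (0.0333) and with only the LPS and BSA arrays fitted (0.0106).

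Timp1 was spread widely with SA at 20 h, at 6.34, 5.24, 5.53 and 6.43 (mean 5.89 ± 0.59, SD, n = 4), against 5.93, 6.04, 6.62 and 6.30 with OA at 20 h (mean 6.22 ± 0.30, n = 4). Replicates 2 and 3 of SA lay below every OA array, and replicates 1 and 4 lay within the OA range. The SA minus OA difference of -0.34 did not pass (interval -0.75 to 0.08, adjusted p = 0.321). Against SA at 5 h (6.22, 6.30, 6.61 and 6.40) the difference was -0.50 (adjusted p = 0.117), which passed without SA replicate 1 (0.0385) or replicate 4 (0.0228) at 20 h. SA and OA at 5 h differed by 0.07 (interval -0.34 to 0.49), where OA read 6.50, 6.16, 6.35 and 6.22.

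SA at 5 h lay below LPS by 1.55-fold for Timp1 (adjusted p = 0.0217), a call lost without LPS replicate 3 or 4 or SA replicate 1 or 2 (0.0526 to 0.0828). The order of group means was LPS, BSA, SA at 5 h, OA at 5 h, OA at 20 h and SA at 20 h, and only LPS and BSA, the first pair, did not overlap. The span was 1.13, or 2.19-fold.

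**Figure D3:**
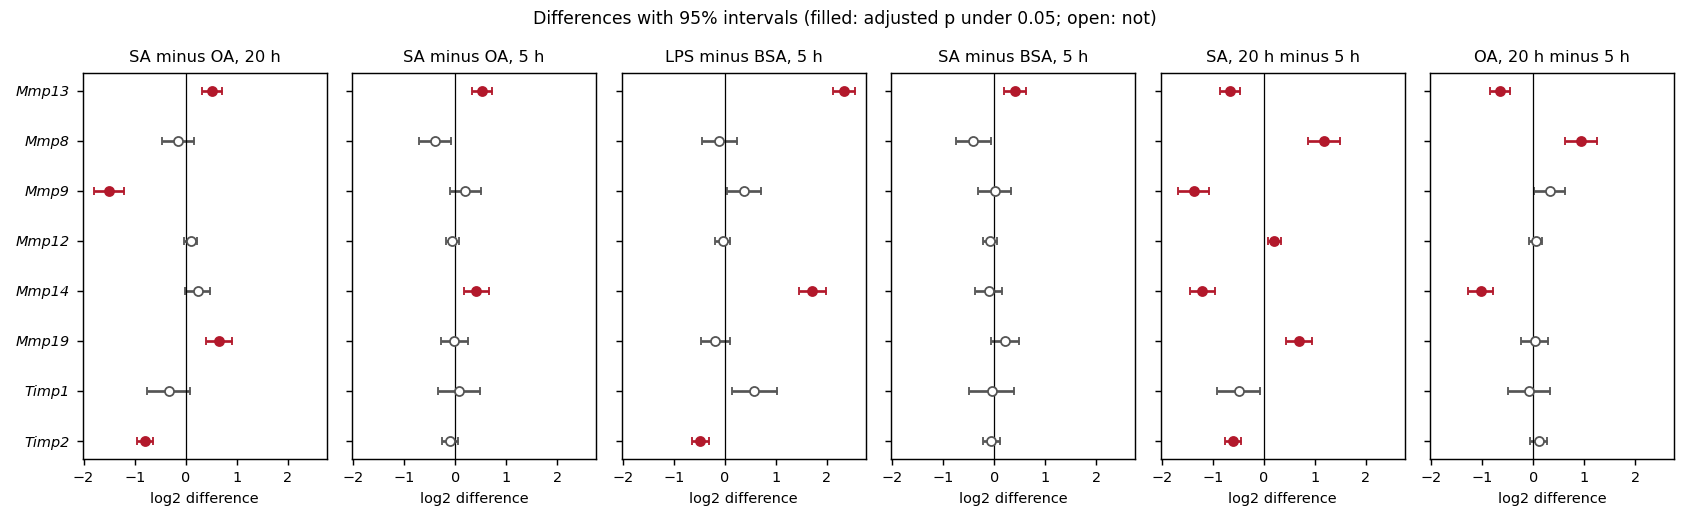
Log2 differences (x axis) with 95% intervals for the 8 genes in 6 comparisons, from one limma fit over 23 arrays; filled points have an adjusted p under 0.05 and open points do not. Mmp13 and Mmp14 lie farthest to the right for LPS, and Mmp9 lies farthest to the left for SA against OA at 20 h.

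Arrays of the groups compared did not overlap for 5 of 8 members between SA and OA at 20 h (20.2% of all genes), 3 between SA and OA at 5 h (10.4%), 4 between LPS and BSA (29.8%), 2 between SA and BSA (13.9%) and 1 between OA and BSA (7.02%). Between SA and LPS they did not overlap for 6 members (22.2%), between SA at 20 h and 5 h for 7 (15.5%) and between OA at 20 h and 5 h for 5 (11.4%). SA and OA, the only pair of fatty acids, were thus compared at 2 times at the same dose. The members that separated them by the adjusted test were Mmp13, Mmp19, Mmp9 and Timp2 at 20 h and Mmp13 and Mmp14 at 5 h.

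Mmp13, Mmp12 and Mmp8 lie in one run of 10 neighbouring protein-coding metalloproteinase genes on mouse chromosome 9, in the order Mmp13, Mmp12, Mmp1b, Mmp3, Mmp1a, Mmp10, Mmp8, Mmp27, Mmp20 and Mmp7. All 10 were measured. The group means of Mmp1b, Mmp3, Mmp1a, Mmp10, Mmp20 and Mmp7, 1.70 to 3.58, lay below the median over genes in every group. Whether the signals of these genes stood above background was not tested. With LPS against BSA 2 of the 10 rose, Mmp13 and the stromelysin Mmp10 (0.46 ± 0.16, adjusted p = 0.0418), and none fell, where 9.22% of all genes rose and 13.2% fell. With SA against OA at 20 h Mmp13 rose and Mmp27 fell (-0.64 ± 0.13, adjusted p = 0.000975), where 7.72% of all genes rose and 8.95% fell. Within SA, Mmp8 and Mmp12 were higher and Mmp13 was lower at 20 h than at 5 h, where 6.23% of all genes were higher and 6.57% lower. The neighbours Mmp13 and Mmp12, at one end of the run, thus passed in opposite directions in that comparison. The Mmp12 difference was only 0.20, however, and passed in 9 of 17 alternative settings. Mmp9 lies on chromosome 2, Mmp14 on 14, Mmp19 on 10, Timp1 on X and Timp2 on 11.

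**Figure D4:**
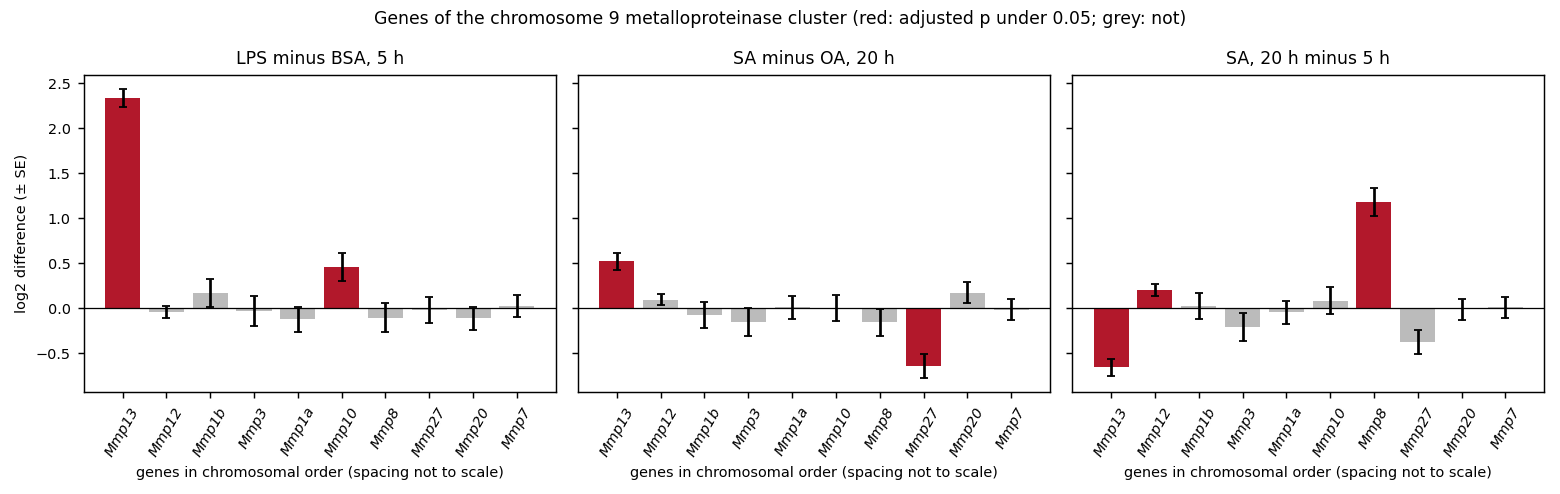
Log2 differences (y axis, bars from 0, whiskers SE) of the 10 metalloproteinase genes of the chromosome 9 run, in chromosomal order along the x axis with spacing not to scale, for LPS against BSA, SA against OA at 20 h and SA at 20 h against 5 h; red bars have an adjusted p under 0.05. The Mmp13 bar for LPS, at 2.34, is the tallest. In each panel 7 or 8 of the 10 genes did not pass, where 22.4%, 16.7% and 12.8% of all genes passed, in panel order.

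Of 16 other metalloproteinases measured, 1 fell with SA against OA at 20 h (Mmp27, above), where 8.95% of all genes fell, and none passed limma's adjusted test at 5 h. With LPS against BSA 2 rose (9.22% of all genes), Mmp10 and the membrane-anchored Mmp25 (0.71, adjusted p = 0.000316), and both fell with SA against LPS (Mmp25 by 0.61, Mmp10 by 0.56). The group means of Mmp10 and Mmp25, 3.02 to 3.81, lay below the median over genes. So did those of the other genes of this list in every group, apart from Mmp23 and Mmp27. Whether these signals stood above background was not tested. The list's median was -0.01 between SA and OA at 20 h, against 0.03 over all genes. Of the 3 other inhibitors, Timp3, which binds to the matrix, rose by 0.71 with SA against OA at 20 h and Timp4 by 0.30 (adjusted p = 0.0437 and 0.0362). Timp4 averaged 2.60 with SA and 2.31 with OA, below the median over genes, and whether its signal stood above background was not tested. Timp3 also rose with LPS against BSA (0.91, adjusted p = 0.0113). It averaged 3.93 with OA at 20 h and 4.24 with BSA, below the medians over genes of those groups (4.27 and 4.26). Those Timp3 levels were not tested against background either.

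Among 13 ADAM and ADAMTS proteases, which shed membrane proteins or cut proteoglycans, 6 fell and 1 rose with SA against OA at 20 h, where 8.95% of all genes fell and 7.72% rose. Adam8, a leukocyte sheddase, fell by 1.89 (adjusted p = 2.2e-15), Adam9 by 0.57 and Adam15 by 0.46, while the proteoglycan-cutting Adamts1 rose by 0.86. Adamts1 also rose with SA against OA at 5 h (0.81) and with SA against BSA (1.09, adjusted p = 3.11e-06). With LPS against BSA 3 rose and 3 fell (9.22% and 13.2% of all genes), Adamts4 by 1.30 upwards and Adam8 by 0.81 downwards. Adamts4 averaged 4.83 with LPS and 3.53 with BSA. Its BSA level lay below the median over genes and was not tested against background. The list's median between SA and OA at 20 h was 0.01.

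Another list held 13 measured genes: plasminogen and its activators, the protease furin and the cathepsins, which can activate metalloproteinase precursors or cut matrix themselves, and inhibitors of such proteases (Serpinb2 and cystatin C, Cst3). With SA against OA at 20 h 1 rose and 3 fell, where 7.72% of all genes rose and 8.95% fell. Plau, the urokinase plasminogen activator, fell by 0.86 (adjusted p = 1.25e-07), as did the cathepsin Ctsl by 0.45 and the inhibitor Cst3 by 0.30, and the cathepsin Ctsk rose by 0.62. With LPS against BSA 3 rose and 4 fell (9.22% and 13.2% of all genes). The plasminogen activator inhibitor Serpinb2 rose by 1.91, the activator Plat by 1.78 and the urokinase receptor Plaur by 0.78, while Plau fell by 1.47. Plat averaged 4.56 with LPS and 2.78 with BSA, and Serpinb2 averaged 5.76 with LPS and 3.85 with BSA. The BSA levels of both lay below the median over genes and were not tested against background. The list's median was -0.07 between SA and OA at 20 h and -0.09 between LPS and BSA.

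Of 17 measured matrix proteins and receptors, 5 fell and none rose with SA against OA at 20 h (8.95% of all genes fell). The mannose receptor Mrc1, which takes up collagen fragments, fell by 2.13, fibronectin (Fn1) by 1.37, the integrin Itgav by 0.74 and Thbs1 by 0.58. With LPS against BSA 5 rose and none fell, the proteoglycan Vcan by 3.29 (adjusted p = 5.75e-15) and Thbs1 by 1.77, where 9.22% of all genes rose and 13.2% fell. Vcan averaged 5.98 with LPS and 2.69 with BSA, and its level with BSA, too, was below that median and not tested against background. The list's median was 0.04 between SA and OA at 20 h, against 0.03 over all genes, and 0.10 between LPS and BSA, against -0.02 over all genes.

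Of 11 measured factors of the AP-1, ETS and Runx families, known from work on metalloproteinase promoters, 3 rose and 4 fell with LPS against BSA, where 9.22% of all genes rose and 13.2% fell. Ets2 rose by 1.47 (adjusted p = 1.96e-10), while the AP-1 subunits Fos and Jun fell by 1.39 and 0.68. Other AP-1 subunits averaged higher with LPS than with BSA, among them Junb at 7.27 against 6.82 and Fosl2 at 5.77 against 5.26. The part of these factors in the Mmp13 result was not tested. With SA against OA at 20 h, 2 rose (Ets2 by 0.43, Jun by 0.43) and 4 fell, Fos by 1.33, where 7.72% of all genes rose and 8.95% fell. With SA against OA at 5 h Ets2 rose by 0.60 and Fos fell by 0.82.

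The 2 genes whose centred group means lay nearest to each member over the 6 groups were named where the member spanned at least 1 log2 unit, as a description with no test. For Mmp13 they were Gca, a calcium-binding protein (root mean square difference 0.12), and Socs3, an inhibitor of cytokine signalling (0.14). For Mmp14 they were Ak4, an adenylate kinase, and Jak2, a kinase of cytokine receptors (0.21 for both). For Mmp9 they were Cox7a1 and Tmem171 (0.15 for both), for Mmp8 St8sia4 (0.13) and Plxnc1 (0.17), for Mmp19 Zfp566 (0.04) and Mcoln1 (0.06), and for Timp1 Abracl (0.03) and Oaf (0.05).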

How the data were processed

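The authors deposited log2 expression values per probe set (35556 on each of 23 arrays), made with RMA per the submitters' processing notes, which also name limma without a role; versions and genome build are not given in the sources used here. Each sample's RNA, about 10 ng, was amplified with biotin labelling, per the labels' protocols. Array medians were 3.98 to 4.12, the table ran from 0.38 to 12.9, and no scanner files were used here to check the scale, so that the log2 base rests on RMA. The platform annotation gave 21789 probe sets 1 symbol, 1621 several and 12146 no entry. Genes with several probe sets (999) were read from that of highest mean. The number of arrays limits the precision.

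Groups were taken from the array titles. All genes were fitted with a mean per group in limma 3.58.1 (R 4.3.3), with 9 two-sided contrasts, eBayes and Benjamini-Hochberg adjustment over 19938 genes per contrast, and the threshold was 0.05. The fit was tested on simulated data. Intervals are 95%, unadjusted for the number of genes.

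All 8 members enter the counts of every comparison, but not every difference that did not pass is printed. From each gene list, counts over its measured genes and at most 4 names per comparison are given, those that passed with the largest differences. Other list genes are named only for their group means. Members and lists were chosen with earlier results of these data known. Of 131 list genes, 124 were analysed through a probe set of 1 symbol, and the other 7 were not analysed here. Alternatives were variance moderation, centring, quantile normalization, array weights, a filter on the dimmest 25% of genes, probe set choice, all probe sets, only the groups compared, a block for the replicate number, and every array left out in turn. Promoters are RefSeq's. Figures were drawn with matplotlib 3.10.9.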

Additional observations from a re-analysis of the deposited data

Results flagged for a closer look

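The difference between SA and OA depended on the time for 3 members by a test of the change itself. For Mmp9 the change was -1.70 (adjusted p = 4.27e-06), for Timp2 -0.71 (adjusted p = 9.62e-05) and for Mmp19 0.66 (adjusted p = 0.0253), each as the SA minus OA difference at 20 h less that at 5 h. For Mmp9 and Timp2 this passed in all 25 settings tried, and for Mmp19 in 20 of 25.

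In 3 of 40 sets of 4 arrays of a member, 1 array lay far from the other 3, by a gap above Dixon's 95% critical share of the whole range, and chance gives about 1 in 20. Mmp8 read 6.26 in OA at 20 h replicate 4, against 6.72 to 6.77 in the other OA arrays at 20 h. Mmp9 read 8.13 in OA at 20 h replicate 2, against 8.23 to 8.25. Mmp12 read 11.59 in LPS replicate 4, against 11.65 to 11.66. The causes were not tested.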

How the results depend on the processing

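The count of members that passed was 4 in every setting tried between SA and OA at 20 h, 3 between OA at 20 h and 5 h, and 0 between OA and BSA. Between SA and OA at 5 h it was 2, and 1 with all probe sets, with the replicate block or with only the groups compared (1 to 2 when each array was left out), with Mmp14 the call lost. Between SA and BSA it was 1, and 0 with only the groups compared (0 to 1 on leaving out each array). On leaving out each array of the groups compared, the count ranged from 3 to 5 between LPS and BSA (5 without LPS replicate 2, when Mmp9 and Timp1 also passed), 3 to 5 between SA and LPS (3 without SA replicate 1, when Mmp19 and Timp1 were lost), 6 to 7 between SA at 20 h and 5 h, and 2 to 3 for the change of the SA minus OA difference between the times. No called value reversed its sign. The causes of lost calls were not tested. Fits without an array or with only the groups compared held fewer arrays, and some calls were lost with all 23 arrays kept. The labels tie the replicate numbers to no shared animal, batch or day, so the numbers were not taken to pair the samples. Correlations of deviations from group means cannot decide this, because some pairs of either kind were over 0.1. Over 55 pairs of same-numbered arrays they ran from -0.12 to 0.20 (median 0.02), and 7 were over 0.1, as were 4 of 165 pairs of different number. Of the 4 same-numbered pairs of SA and OA at 20 h, 3 were over 0.1 (0.114, 0.201 and 0.11) and 1 was not (0.0252), a hint of pairing from the data alone. Every same-numbered pair over 0.1 held an SA array at 20 h, and several held replicate 2, which stood apart from its group. That array also correlated at 0.178 with BSA replicate 1. The replicate block ended no other call of a member than Mmp14 between SA and OA at 5 h (adjusted p = 0.0589).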

Other observations

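Markers of osteoclasts, which share a lineage with macrophages, were measured in these cultures through 6 genes, of which only Calcr lay below the median over genes. With SA against OA at 20 h 2 of 6 rose and 2 fell (7.72% and 8.95% of all genes), and with LPS against BSA 2 rose and 3 fell (9.22% and 13.2% of all genes). Of 9 stromal markers, 5 to 7 lay below the median over genes, depending on the group, and their mean ranged over arrays from 3.49 to 3.93. Among them 1 fell with SA against OA at 20 h (8.95% of all genes) and 1 rose with LPS against BSA (9.22% of all genes).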
